A study of Mus musculus with 6 samples.

Results

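The 44 genes described here encode the cyclins, kinases, replication factors and spindle proteins of the cell cycle, together with 3 transcription factors that act on them. The list was set by gene name, with earlier results of these data known. Rows of the deposited table whose symbol field holds a member's symbol were kept, and all 44 members were found among its 59485 genes. By role they fall into 8 G1 cyclins and kinases, 12 S phase genes, 21 mitotic genes and the 3 transcription factors. Each has a row of its own except *Plk1*, which shares a row with *Dctn5* and is therefore uncertain. At least 1 other gene on the same strand overlaps each of 7 members (*Ccnd3*, *Mcm7*, *Top2a*, *Kif11*, *Nusap1*, *Tpx2* and *Foxm1*), so that their reads could be mixed.

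RNA was sequenced from sciatic nerves of mice at postnatal day 4 (P4), with 3 libraries labelled control and 3 labelled mutant, 1 animal each. The control animals are labelled wild-type, and the study's text counts heterozygous animals among its controls too. The mutants are labelled Ht-PA-Cre; Adar1fl/fl;R26R: Cre, made from a human tissue plasminogen promoter, removes floxed *Adar* (the gene of the RNA editing enzyme ADAR1) in neural crest (NC) cells, and R26R is a YFP tracer. Schwann cells (SCs) derive from the NC. Whole nerve also holds other cells, and the table does not show which of them lost the gene.

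Control libraries held 50.9 to 68.7 M reads on genes and mutant libraries 57.0 to 78.3 M, and every member had at least 58 reads in each library. Values are read counts normalised by the authors to library size, and they were compared with limma on the log2(value + 1) scale, as mutant minus control. A gene is said to have risen or fallen where its Benjamini-Hochberg adjusted p over all 25802 tested genes was at or under 0.05. The targeted gene, *Adar*, was higher and not lower in the libraries labelled mutant. It had values of 1602, 2066 and 1133 in controls against 11768, 9311 and 9773 in the mutants. The rise was 2.72 on the log2 scale (standard error 0.20, adjusted p = 4.1e-05, limma). The table gives 1 value per gene and so cannot separate a deleted exon from the rest. Every direction given here is thus that of the labels, and names such as mutant 2 stand for the library labelled as mutant replicate 2. The SC markers *Sox10*, *S100b* and *Erbb3* were detected in all 6 libraries. Of the 6 SC markers examined, 4 were lower in the mutants, beside 16% of all genes (*S100b* by a log2 fold change of -3.07 and *Erbb3* by -1.55). In whole nerve, fewer cells of a type and less RNA per cell cannot be told apart.

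A cell enters division when D-type cyclins with CDK4 or CDK6, and then E-type cyclins with CDK2, inactivate the RB family of pocket proteins and free E2F factors. E2F factors switch on genes of DNA replication in G1 and S phase, such as the MCM helicase subunits, whereas MYBL2, FOXM1 and the DREAM and MuvB complexes time the later genes of G2 and mitosis, such as the B-type cyclins, Aurora kinases and kinesins. In developing nerve, immature SCs divide and leave the cell cycle as they start to wrap axons in myelin.

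These waves are written in part into promoters, so the starts of members were searched for 3 motifs on both strands: the E2F-type motif TTTNNCGC, the cell cycle homology region (CHR) TTTGAA that MuvB complexes bind, and the CCAAT box. The RefSeq windows (build GRCm38.p6, 250 bases before to 50 bases after each start) were found for 35 of the 44 members. The E2F-type motif lay in 7 of 11 S phase genes (63.6%), 1 of 17 mitotic genes (5.88%) and 5.93% of the 27025 genes with a window. The CHR motif had the opposite spread, with 1 of 11 S phase genes (9.09%), 12 of 17 mitotic genes (70.6%) and 20.2% of all genes. CCAAT, a short motif, was in 8 of 11 S phase genes (72.7%), 15 of 17 mitotic genes (88.2%) and 41.1% of all genes. A match is only a match of letters.

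Shown 5′ to 3′ on the strand of the gene are the S phase and mitotic members with the smallest adjusted p that hold a motif, with matches in capitals. Among the S phase genes, *Cdc6* (chr11:98907981-98908150, plus strand), *Mcm5* (chr8:75109339-75109508, plus strand) and *Mcm3* (chr1:20820286-20820482, minus strand) are shown from 170 bases before the start, and *Mcm7* (chr5:138172030-138172059, minus strand), which lies within an annotated untranslated region, is shown as the 30 bases around its match. GCGGGAAA and GCGCCAAA are the E2F-type motif read on the opposite strand, ATTGG is CCAAT on the opposite strand, and in *Mcm5* 2 E2F-type matches on opposite strands overlap. Outside the stretches printed lie a second E2F-type match of *Mcm7*, at bases 17 to 24 after the start, and of *Mcm3*, at bases 39 to 46, the CCAAT matches of *Mcm7*, and a CCAAT match of *Mcm5* at bases 7 to 11.
Cdc6: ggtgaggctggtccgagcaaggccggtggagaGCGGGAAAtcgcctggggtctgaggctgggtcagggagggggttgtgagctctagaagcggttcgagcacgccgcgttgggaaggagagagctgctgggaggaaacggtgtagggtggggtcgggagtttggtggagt
Mcm7: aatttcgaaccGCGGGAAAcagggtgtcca
Mcm5: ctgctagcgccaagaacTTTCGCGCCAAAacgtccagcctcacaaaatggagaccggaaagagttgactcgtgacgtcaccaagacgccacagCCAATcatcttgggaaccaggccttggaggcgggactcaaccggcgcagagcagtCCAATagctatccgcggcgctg
Mcm3: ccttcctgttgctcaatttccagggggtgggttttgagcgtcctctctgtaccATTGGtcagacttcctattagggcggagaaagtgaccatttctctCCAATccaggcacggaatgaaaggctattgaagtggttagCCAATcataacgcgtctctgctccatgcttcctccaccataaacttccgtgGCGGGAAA

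Among the mitotic genes, *Cdc20* (chr4:118437344-118437513, minus strand), *Cenpf* (chr1:189688079-189688256, minus strand) and *Cenpe* (chr3:135212393-135212562, plus strand) are shown from 170 bases and *Aurka* (chr2:172370571-172370710, minus strand) from 140 bases before the start. The CHR match of *Cdc20* starts 18 bases before the start and is flanked by CCAAT on both sides, that of *Cenpf* lies at bases 3 to 8 after the start, and *Cenpe* has CCAAT only. In *Aurka* the CHR match lies at bases 33 to 38 after the start and so outside the stretch printed.
Cdc20: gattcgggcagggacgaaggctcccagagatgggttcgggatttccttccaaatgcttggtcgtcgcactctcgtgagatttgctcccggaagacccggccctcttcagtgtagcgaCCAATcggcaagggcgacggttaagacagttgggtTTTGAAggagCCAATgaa
Aurka: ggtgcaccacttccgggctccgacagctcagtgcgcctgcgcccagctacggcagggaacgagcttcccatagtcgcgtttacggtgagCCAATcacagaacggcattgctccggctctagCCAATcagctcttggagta
Cenpf: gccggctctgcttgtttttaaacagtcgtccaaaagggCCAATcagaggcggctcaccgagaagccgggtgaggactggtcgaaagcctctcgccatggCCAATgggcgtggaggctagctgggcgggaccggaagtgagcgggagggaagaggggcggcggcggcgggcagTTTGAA
Cenpe: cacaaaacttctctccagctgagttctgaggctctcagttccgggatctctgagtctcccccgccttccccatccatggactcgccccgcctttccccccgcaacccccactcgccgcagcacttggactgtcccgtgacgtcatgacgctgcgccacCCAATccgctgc

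Of the 44 members, 17 rose, 1 fell and 26 did neither. Among all genes tested, 19% rose and 16% fell. The lists differed in how many of their genes rose: 5 of 8 in G1, 9 of 12 in S phase and 1 of 21 in mitosis, with 2 of the 3 transcription factors. The median log2 fold change was 0.86 in G1, 0.60 in S phase and -0.04 in mitosis, against 0.03 over all genes tested. The order of these medians is a description over genes and was not tested. All 12 S phase genes had a positive log2 fold change, while the mitotic genes were split into 10 positive and 11 negative ones. The 3 mutant values all lay above the 3 control values in 17 members (25.9% of all genes tested) and all below them in 1 (23.3%). The study's methods set other limits, a 2-fold change with a p-value of 0.05 or less, taken here as the unadjusted p from limma. Under them, 3 members were higher (*Ccnd2*, *Cdk6* and *Cdc6*; 13.9% of all genes) and 0 lower (10.4%). At an unadjusted p of 0.05 or less from limma, with no limit on the fold, 19 members were higher (24.2% of all genes) and 2 lower (20.8%).

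**Figure D1:**
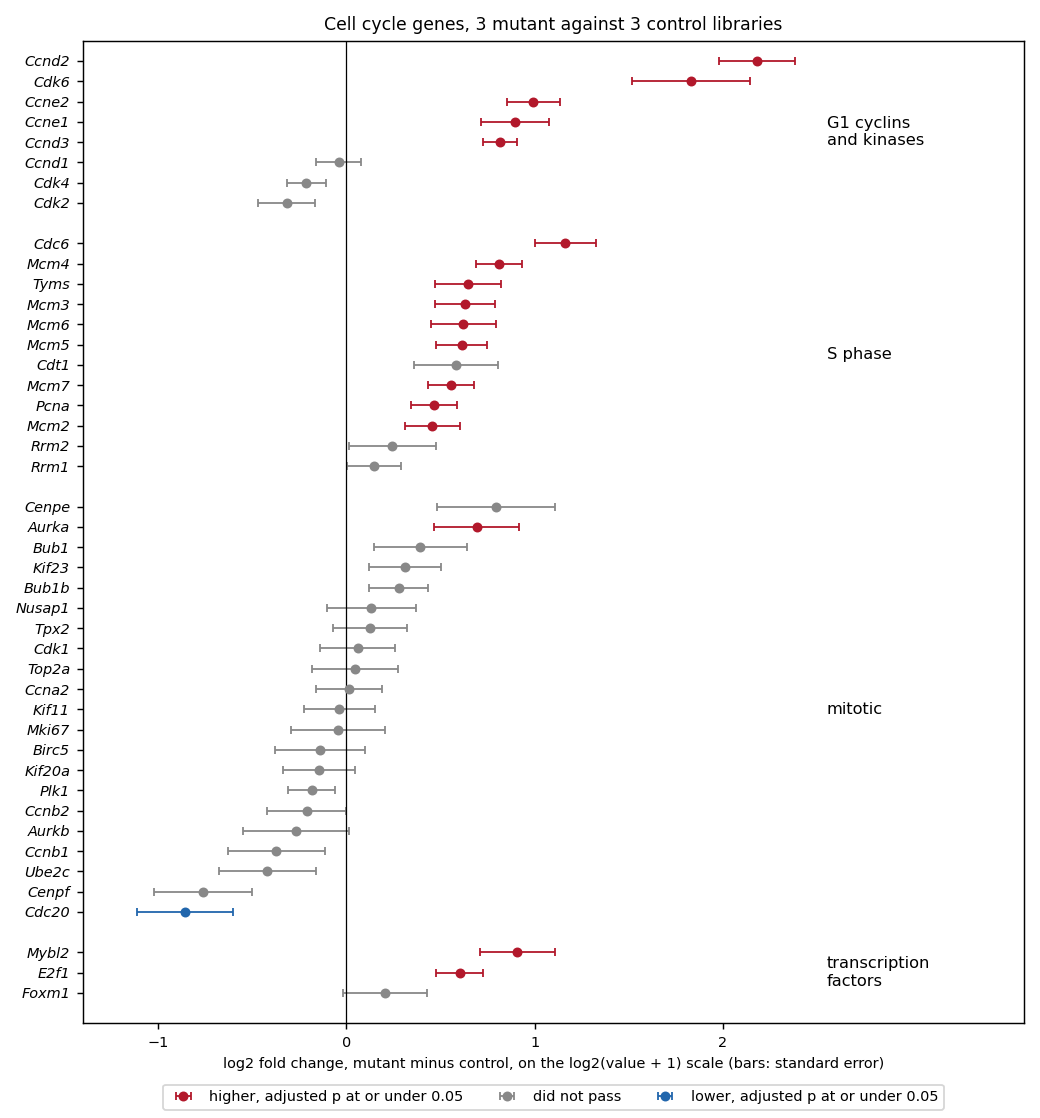
Log2 fold change (mutant minus control, log2(value + 1) scale, x axis) of each of the 44 members, grouped by role, with bars for the standard error from limma and colours for genes that rose, fell or did not pass. The S phase genes all sit to the right of 0, from 0.15 to 1.16, whereas the mitotic genes lie around it, from -0.86 to 0.79.

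In G1, cyclins D2, D3, E1 and E2 and CDK6 rose together, whereas cyclin D1, CDK4 and CDK2 did not pass the test. *Ccnd2*, a D-type cyclin (GSMG0033704, chromosome 6, 127125167 to 127151048 in mm10), had values of 927, 710 and 680 in controls 1 to 3 and 3513, 2669 and 4456 in mutants 1 to 3. All mutants stood far above all controls, by 2.18 on the log2 scale (standard error 0.20, adjusted p = 0.000107, limma) or 4.53-fold. Its partner kinase *Cdk6*, with few reads, went from 86.6, 54.8 and 97.6 in controls to 238, 251 and 358 in mutants (log2 fold change 1.83, standard error 0.31, adjusted p = 0.00258, limma). *Ccnd2* and *Cdk6* were highest in mutant 3, the library in which mitotic genes were lowest.

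*Ccnd3* showed little spread among the controls (4249 to 4314) and rose to 6894 to 8013, a log2 fold change of 0.82. The E-type cyclins, which activate CDK2 at the start of S phase, each rose by close to 1 on the log2 scale. *Ccne1* had values of 877, 1076 and 1415 in controls against 1958, 2334 and 1879 in the mutants (0.89, adjusted p = 0.00603, limma). *Ccne2* had values of 579, 526 and 553 in controls against 1027, 1277 and 1014 in the mutants (0.99, adjusted p = 0.00104, limma). All 5 rises in G1 kept an adjusted p at or under 0.05 (limma) with each library left out in turn.

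The genotypes overlapped for the G1 members that did not pass. *Ccnd1*, the D-type cyclin with values of 10206 to 11942 in the controls, had 9436 to 12116 in the mutants (log2 fold change -0.04, standard error 0.12). *Cdk4* and *Cdk2* had log2 fold changes of -0.21 (standard error 0.11) and -0.32 (standard error 0.15), with adjusted p-values of 0.156 and 0.137 from limma.

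In S phase, the genes that rose encode the factor that loads the MCM helicase (*Cdc6*), the 6 subunits of that helicase (*Mcm2* to *Mcm7*), the sliding clamp (*Pcna*) and thymidylate synthase (*Tyms*). *Cdc6* (GSMG0005895, chromosome 11, 98907808 to 98923942) rose most, with values of 633, 619 and 563 in controls against 1370, 1624 and 1112 in the mutants. Its rise of 1.16 on the log2 scale (standard error 0.16, adjusted p = 0.000879, limma) was the only one in the list past 2-fold. The lowest mutant was thus well above the highest control.

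*Mcm4* had the largest change of the helicase subunits, from 5834, 5944 and 6924 in the controls to 10959, 12463 and 9467 in the mutants (0.81, standard error 0.12, adjusted p = 0.00138, limma). The other subunits moved by similar amounts, with log2 fold changes of 0.46 for *Mcm2*, 0.63 for *Mcm3*, 0.61 for *Mcm5*, 0.62 for *Mcm6* and 0.56 for *Mcm7*. *Mcm3* went from 3709, 4466 and 5064 to 7115, 7853 and 5550, so that mutant 3 was only just above control 3. In *Mcm2* the groups touched: mutant 3 had 7402 and control 3 had 7436.

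*Pcna*, the clamp that holds DNA polymerases on the template, had values of 7192 to 8595 in controls against 9705 to 12816 in the mutants (0.46). *Tyms*, which makes thymidylate, had 1229 to 1446 in controls against 1694 to 2648 in mutants (0.64). Both were highest in mutant 2.

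For 3 S phase members the test was not passed. *Cdt1*, which works with CDC6 in loading the helicase, had 743, 1128 and 1199 in controls against 1575, 1818 and 1174 in the mutants, and mutant 3 fell within the control range (0.58, standard error 0.22, adjusted p = 0.0752, limma). The subunits of ribonucleotide reductase, which makes deoxynucleotides, had the smallest differences of the list: *Rrm1* 0.15 (standard error 0.15) and *Rrm2* 0.24 (standard error 0.23). *Rrm2* was 5049, 5277 and 6773 in controls against 6591, 9469 and 4802 in the mutants, so mutant 2 lay above and mutant 3 below every control.

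Several S phase calls were close to the threshold. In place of 9 S phase genes, 2 passed when limma was run without the trend, which ended the calls of *Mcm2*, *Mcm3*, *Mcm5*, *Mcm6*, *Mcm7*, *Pcna* and *Tyms* (adjusted p = 0.0543 to 0.133). With values rescaled to the same 75th percentile, or with control 1 left out, 5 passed. *Mcm2* and *Mcm6* each lost their call in 4 of the 6 left-out libraries (adjusted p-values up to 0.121 and 0.0766 from limma), and *Mcm3*, *Pcna* and *Tyms* each in 2 (up to 0.054, 0.0622 and 0.0704). *Cdt1* passed without mutant 3 (adjusted p = 0.0468, limma), with the same total (0.0248, limma) and with DESeq2 on the recovered reads (0.0358). With each library left out, the median log2 fold change of the list was between 0.45, without mutant 2, and 0.74, without mutant 3. It was 0.76 with the same total.

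**Figure D2:**
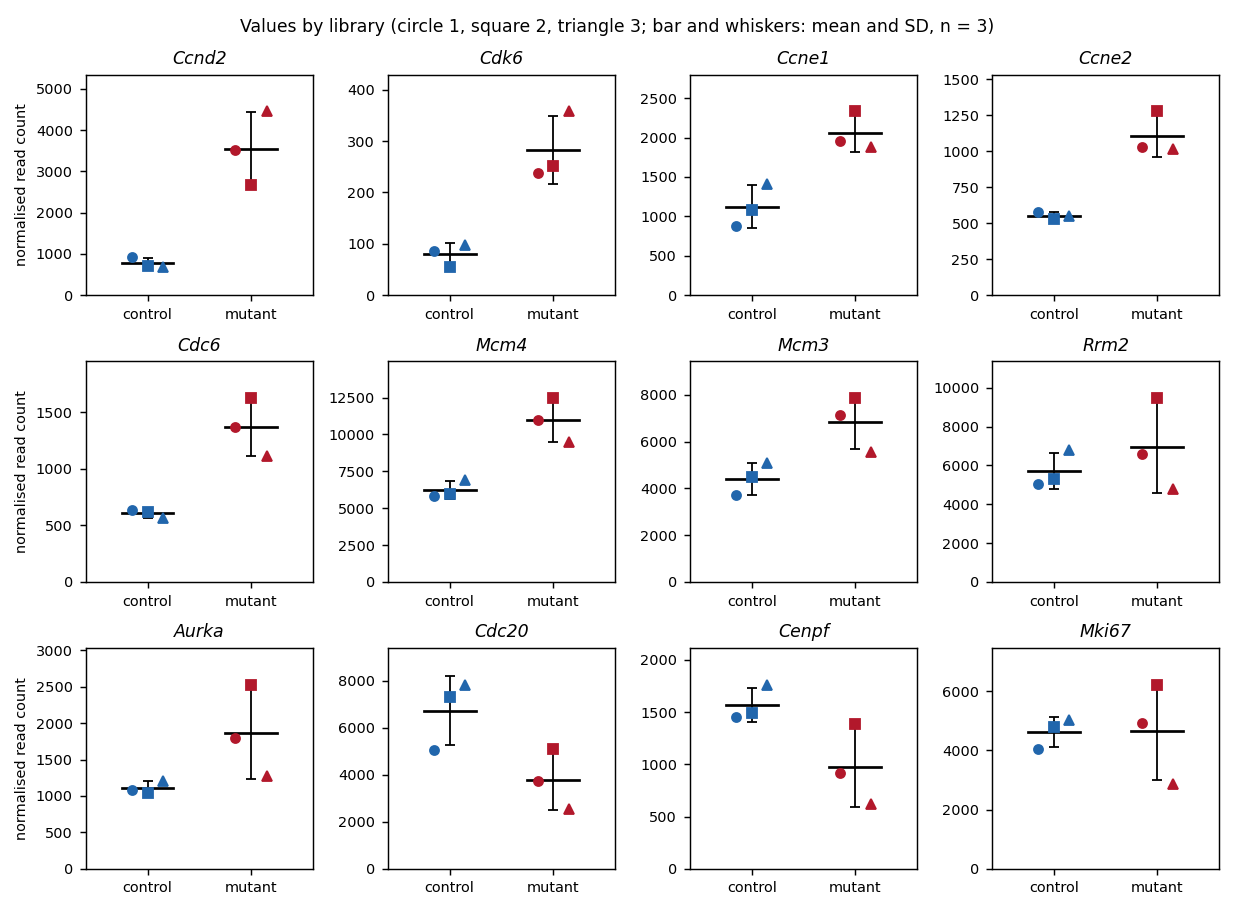
Normalised read counts (y axis, from 0) of 12 members in the 3 control and 3 mutant libraries, with a symbol per replicate and the mean and SD (n = 3). In *Ccnd2*, *Cdk6*, *Ccne1*, *Ccne2*, *Cdc6*, *Mcm4*, *Mcm3* and *Aurka* every mutant lies above every control, whereas in *Rrm2* and *Mki67* mutant 2 lies above and mutant 3 below the controls.

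Among the mitotic genes, 19 of 21 neither rose nor fell. *Mki67*, the proliferation marker Ki-67, had values of 4032, 4771 and 5011 in controls against 4920, 6203 and 2875 in the mutants (log2 fold change -0.05, standard error 0.25, adjusted p = 0.905, limma). *Top2a*, the topoisomerase that untangles sister chromatids, had 8506, 9649 and 11141 in controls against 9950, 14257 and 7065 in the mutants (0.04, standard error 0.23). In both genes the mutants spread further than the controls, on either side of them.

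The mitotic cyclins and their kinase did not pass either. *Ccna2* (cyclin A2) changed by 0.01, *Ccnb1* and *Ccnb2* (B-type cyclins) by -0.37 and -0.21, and *Cdk1*, the kinase that they activate, by 0.06, and the groups overlapped in all 4 genes. *Ccnb1* had 1255, 1274 and 1407 in controls against 850, 1610 and 757 in the mutants: mutant 2 was above the controls and the other mutants below.

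*Aurka*, the kinase of the spindle poles, was the mitotic member that rose. It had values of 1079, 1041 and 1210 in controls against 1790, 2523 and 1267 in the mutants (0.69, standard error 0.23, adjusted p = 0.0444, limma). Mutant 3 was just above control 3, and the call was lost with any library but mutant 3 left out (adjusted p = 0.0761 to 0.119, limma) and without the trend (0.124). *Aurkb*, the kinase of the centromere, had a log2 fold change of -0.27 and its partner *Birc5* (survivin) one of -0.14.

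*Cdc20*, an activator of the anaphase promoting complex (APC/C), was the member that fell. Its values were 5046, 7320 and 7815 in controls against 3724, 5100 and 2556 in the mutants, with mutant 2 just above control 1 (-0.86, standard error 0.25, adjusted p = 0.0303, limma). The call was lost when control 2, control 3, mutant 1 or mutant 3 was left out (adjusted p = 0.0763 to 0.101, limma) and without the trend (0.107). *Ube2c*, the ubiquitin-conjugating enzyme of the same complex, had a log2 fold change of -0.42 (standard error 0.26).

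The centromere proteins *Cenpf* and *Cenpe* had separate groups without passing the test, but both lay near its threshold. *Cenpf* had 1455, 1497 and 1760 in controls against 921, 1383 and 618 in the mutants (-0.76, standard error 0.26, adjusted p = 0.0515, limma). *Cenpe*, a kinesin of the kinetochore, had 231, 219 and 125 in controls against 233, 406 and 350 in the mutants (0.79, standard error 0.31, adjusted p = 0.0826, limma). The lowest *Cenpe* mutant was barely above the highest control. *Cenpf* passed as lower with DESeq2 (adjusted p = 0.0236) and, in limma, with a pseudocount of 10, a mean of at least 50 or the same 75th percentile (0.0332 to 0.0442), and *Cenpe* passed as higher with the same total (0.0469).

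The checkpoint kinases *Bub1* and *Bub1b* had log2 fold changes of 0.39 and 0.28, and the motor *Kif23* of the midbody had 0.31. *Kif11* and *Kif20a*, motors of the spindle and of cytokinesis, had -0.04 and -0.15, and the spindle proteins *Nusap1* and *Tpx2* had 0.13 and 0.12. The row of *Plk1* and *Dctn5* had -0.18. None of these 8 rows passed the test, with standard errors from 0.12 to 0.25. Without mutant 2, 4 mitotic genes fell: *Cdc20*, *Cenpf* (adjusted p = 0.00807, limma), *Ccnb1* (0.00767) and *Ube2c* (0.0377). Without mutant 3, *Bub1b* rose (adjusted p = 0.0184, limma).

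The mitotic genes were ordered alike across the mutants. Mutant 2 was the highest of the 3 mutants in 21 of 21 mitotic genes and mutant 3 the lowest in 20, and the full order 2, 1, 3 held in 20 of them. Over all genes tested, that order was found in 4428 of 25802. Mutant 2 lay above all controls in 17 mitotic genes (39.7% of all genes) and mutant 3 below all controls in 18 (35.1%). The ratio of mutant 2 to mutant 3 had a median of 1.99 in the mitotic list, 1.44 in the S phase list and 0.98 over all genes. The same order held in 11 of 12 S phase genes, but there mutant 3 stayed above all controls in 8 (39.3% of all genes). Genes of a list vary together within a library, so these counts describe 3 libraries and were not tested.

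Set against the control mean, the median S phase gene was 0.60, 0.80 and 0.32 higher (log2) in mutants 1 to 3, and the median mitotic gene differed by -0.09, 0.41 and -0.45. The S phase median exceeded the mitotic median by 0.69, 0.39 and 0.77 in the mutants and by -0.05, 0.04 and 0.01 in the controls. Both lists thus went up and down together between libraries, while the distance between them was larger in each mutant than in any control. The controls had a smaller order of their own, with control 3 the highest of the controls in 34 of the 44 members and control 1 the lowest in 31, against 8525 and 10246 of the 25802 genes tested. The G1 list had medians of 0.86, 0.89 and 0.81 in mutants 1 to 3, in the same order but closer together. Only 4 of its 8 genes had the order 2, 1, 3.

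**Figure D3:**
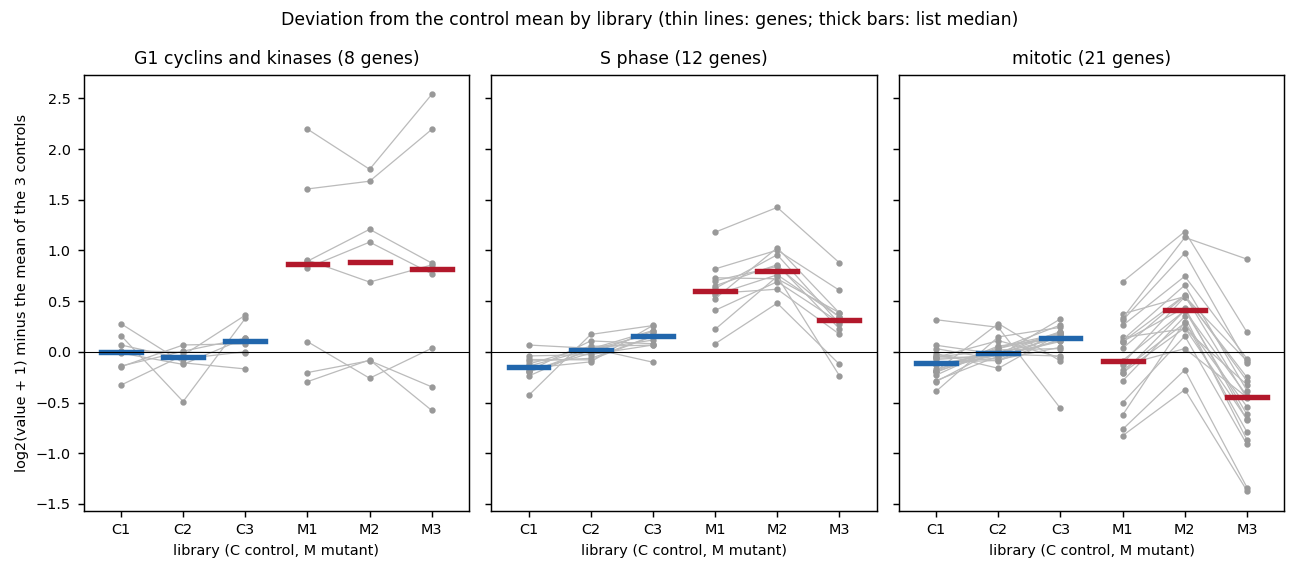
Log2(value + 1) of each member minus its mean over the 3 controls (y axis) in control libraries C1 to C3 and mutant libraries M1 to M3, for the G1, S phase and mitotic lists; thin lines are genes and thick bars list medians. The S phase medians of the mutants (0.60, 0.80 and 0.32) all lie above 0, and the mitotic medians (-0.09, 0.41 and -0.45) lie on either side of it.

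The transcription factors of both waves were measured too. *E2f1*, an activator of S phase genes, had values of 1438, 1499 and 1480 in controls against 2322, 2517 and 1911 in the mutants (0.60, standard error 0.13, adjusted p = 0.00662, limma). *Mybl2* (B-MYB), which joins MuvB at promoters of mitotic genes, had 1125, 1283 and 1362 in controls against 2608, 2925 and 1699 in the mutants (0.91, standard error 0.20, adjusted p = 0.0084, limma). Both were higher in every mutant than in any control, and both kept their call with each library left out. *Foxm1*, the forkhead factor that follows MYBL2 at mitotic promoters, had 1203, 1392 and 1660 in controls against 1844, 2018 and 1139 in the mutants, so mutant 3 lay below the controls (0.20, standard error 0.22, adjusted p = 0.513, limma).

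Among the 11 S phase genes with a promoter window, the 7 with the E2F-type motif printed for *Cdc6*, *Mcm7*, *Mcm5* and *Mcm3* changed by a median of 0.62 on the log2 scale. The few without it (*Mcm2*, *Pcna*, *Rrm1* and *Rrm2*) changed by 0.35, and *Mcm4* (0.81) had no window. The 12 of 17 mitotic genes with the CHR motif had a median of -0.04 and those without it 0.13. Neither difference was tested. *Aurka* and *Cdc20*, which moved in opposite directions, both hold CHR and CCAAT.

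The opponents of the cyclins were read from a list of 10 CDK inhibitors and pocket proteins, in which 1 gene rose and 5 fell, beside 19% and 16% of all genes. Without the trend 3 fell, since *Cdkn2c* and *Rbl2* lost their calls (adjusted p = 0.0623 and 0.054, limma), and under the study's limits 2 were lower. *Cdkn1c* (p57) had the largest fall, from 26910, 29801 and 22996 in the controls to 11020, 7771 and 6847 in the mutants (-1.66, standard error 0.18, adjusted p = 0.000231, limma). *Cdkn1b* (p27) fell as well, with 19861 to 21777 in controls against 9451 to 12436 in mutants (-0.93, adjusted p = 0.000436, limma). *Cdkn2c* (p18) had 1360 to 1981 in controls against 534 to 1139 in mutants (-1.08), and its call was lost without control 3 (adjusted p = 0.055, limma). The pocket proteins *Rb1* and *Rbl2* fell by 0.71 and 0.47 on the log2 scale, and 7 other genes overlap *Rb1* on its strand.

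*Cdkn2b* (p15), an inhibitor of CDK4 and CDK6, was the one that rose, from 462, 530 and 568 in the controls to 1202, 1518 and 1215 in the mutants (1.33, standard error 0.15, adjusted p = 0.000322, limma). *Cdkn1a* (p21), which p53 induces, had 22736 to 25944 in controls against 21301 to 26884 in the mutants (0.01, standard error 0.11). *Cdkn2a* (0.87, adjusted p = 0.0552, limma), *Rbl1* (0.57) and *Cdkn2d* (-0.07) did not pass. *Cdkn2a* passed as higher with a mean of at least 50, the same total and DESeq2 (adjusted p = 0.0448, 0.0268 and 0.0387), and *Rbl1* with the same total (0.0257, limma).

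Further genes of the same phases were taken from 4 more lists. Among 41 other DNA replication genes, 17 rose and 1 fell, beside 19% and 16% of all genes, with a median log2 fold change of 0.47 and positive values in 38 (over all genes, 13320 of 25802). The largest rises were those of *Hells*, a chromatin remodeller (1.52), *Ticrr*, which helps to fire origins (1.26), and *Mcm10*, a helicase activator (1.03), and *Rpa3*, a subunit of the single-strand binding complex, fell by 0.60. Its call was lost without control 2 or control 3 (adjusted p = 0.0586 and 0.0594, limma). *Hells* was 1305 to 1357 in controls against 3183 to 4777 in the mutants.

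Among 54 other mitotic genes, 10 rose, the other 44 did not pass, and the median was 0.12. The condensin subunit *Smc2* rose by 1.09, *Cenpk* of the inner kinetochore by 1.01, and *Fbxo5*, an inhibitor of APC/C that is made before mitosis, by 0.88, the last with its call lost in 4 of the 6 left-out libraries (adjusted p up to 0.0658, limma). The order of mutants 2, 1, 3 was found again in 51 of the 54, with a median ratio of mutant 2 to mutant 3 of 1.94. Beside them, 1 of the 21 mitotic members and 19% of all genes rose, and these shares were not compared by a test.

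Among 14 other E2F, DP and DREAM genes, 6 rose and 1 fell (19% and 16% of all genes). They include the MuvB subunits *Lin9* (1.39), *Lin37* (0.74) and *Lin54* (0.68). The *Lin9* row spans 179979305 to 180690685 on chromosome 1 and is overlapped by 9 other genes on its strand, so reads of these could be mixed in. *Lin54* is overlapped by 1. *Tfdp2*, an E2F partner, fell by 0.62, with a call lost in 5 of the 6 left-out libraries (adjusted p up to 0.139, limma). Among 7 checkpoint kinases and phosphatases, 4 rose (19% of all genes) and 3 did not pass, led by *Chek1* (1.15), the kinase that guards replication. *Wee1*, which restrains CDK1, rose by 0.70 and *Cdc25a*, which activates CDKs, by 0.52. The calls of *Wee1* and *Cdc25a* were lost in 4 and 2 of the left-out libraries (adjusted p up to 0.11 and 0.0626, limma).

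**Figure D4:**
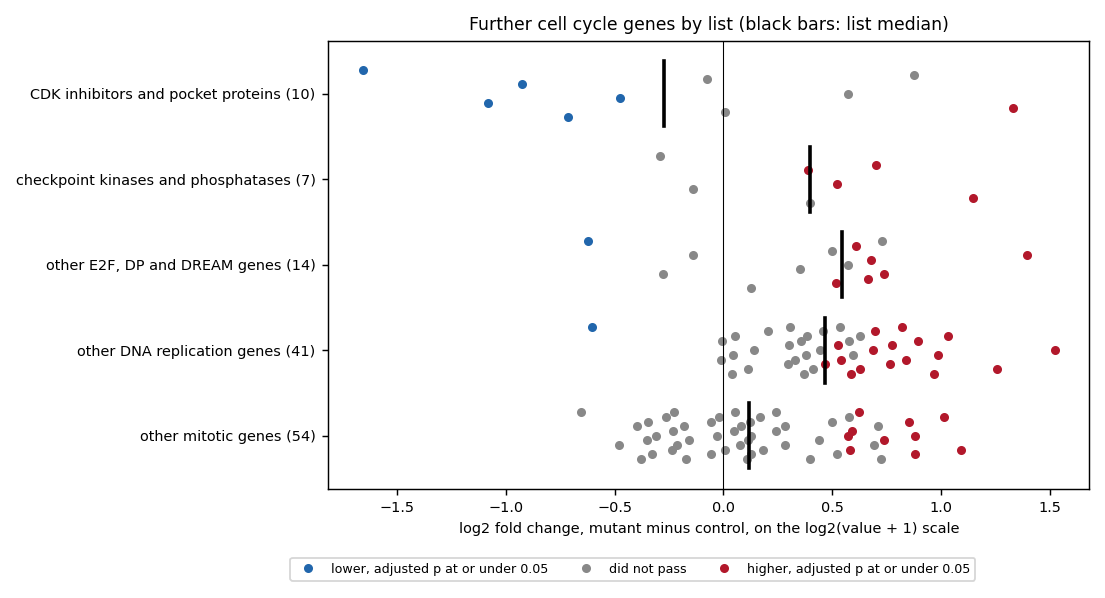
Log2 fold changes (mutant minus control, x axis) of 126 further cell cycle genes in 5 lists (y axis, number of genes in brackets), with a point per gene, colours for genes that rose, fell or did not pass, and black bars at the list medians. The inhibitors and pocket proteins have a median of -0.27, and the DNA replication genes one of 0.47.

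Markers of other cell types moved between the same libraries, and their part in the values above was not tested. Summed over 6 erythroid markers, the level was 39682 to 55746 in controls against 3945 to 11832 in the mutants. Of the 6, 4 were lower (16% of all genes), and *Klf1* was at 0 in mutant 2. The sum of 6 SC markers was 48142 to 51413 in controls against 25652 to 33587 in the mutants. The sum of 7 T and NK cell markers was 87.4 to 175 in controls against 356 to 478 in the mutants. Of the 6 tested, 3 were higher (19% of all genes). *Cd3d*, which was not tested, *Cd8a* and *Ncr1* were at 0 in all controls. Of 8 macrophage markers 3 rose and 3 fell (19% and 16% of all genes), with sums of 11211 to 14439 in controls against 5787 to 7556 in the mutants.

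In the order of the mutants, 6 skeletal muscle markers ran against the mitotic genes, with sums of 34537 in mutant 2, 83098 in mutant 1 and 268128 in mutant 3, and 5197 to 28361 in the controls. Of the 6, 4 were higher in the mutants (19% of all genes). Adipocyte markers were high in mutant 2, at a sum of 6464 against 23.3 and 13.8 in mutants 1 and 3, and varied among controls 1 to 3 as well (1596, 7.56 and 532), and *Plin1*, *Cidec* and *Lep* were at 0 in some libraries. Perineurial markers had sums of 16426, 15064 and 14409 in mutants 2, 1 and 3, and 17771 to 21253 in the controls. That is the order of the mitotic genes, but only 1 of the 5 markers, *Cldn1*, had it. *Cldn1* rose (log2 fold change 0.54), whereas *Itgb4* (-1.62) and *Tenm2* (-0.86) fell, beside 19% and 16% of all genes. Fibroblast markers had sums of 1065310, 1048540 and 724357 in mutants 1 to 3 and 1779280 to 2109010 in the controls. Most of each sum came from *Col1a1* and *Col3a1*, the 2 of 6 that were lower (16% of all genes). *Pdgfra* (log2 fold change 0.16), *Dpt* (0.92), *Dcn* (0.005) and *Lum* (-0.43) did not pass. Endothelial markers had sums of 18574 to 24973 in the mutants and 12856 to 19857 in the controls, highest in mutant 2, with 2 of 6 higher (19% of all genes). Of 5 neuron markers 3 rose (19% of all genes), with sums of 561 to 1003 in controls against 1210 to 1709 in the mutants. No marker of pericytes and smooth muscle, B cells, neutrophils or adipocytes passed the test (limma).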

How the data were processed

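RNA-seq was made from P4 sciatic nerve of 3 control-labelled and 3 mutant-labelled mice. The authors mapped reads to mm10 with STAR 2.4.0, counted reads of oriented poly-A libraries over the constitutive parts of FAST DB genes, and scaled each library by its DESeq2 size factor. This normalised signal, 1 value per gene and library, is what they deposited. In each library 100% of the values were whole multiples (within 0.01) of the value of 1 read, so reads could be recovered.

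log2(value + 1) was fitted with limma 3.58.1 in R 4.3.3 (lmFit, eBayes with trend) for genes with a mean of at least 10 in 1 genotype, which gave 25802 genes, and p-values were adjusted over all of them by the Benjamini-Hochberg method. Libraries held 50.9 to 78.3 M reads on genes, and every member had at least 58 reads in each. For single values, the smallest exact two-sided permutation p of 3 animals against 3 is 0.1.

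The members and all gene lists were chosen with earlier results of these data known. All members may be named; from each further list the text names up to 3 genes that rose and up to 3 that fell most among those with separate groups, and all CDK inhibitors and pocket proteins. Alternatives were pseudocounts of 0.1 and 10, other filters, rescaling to the same total or 75th percentile, eBayes without trend, edgeR 4.0.16 and DESeq2 1.42.0 on the recovered reads, the study's limits, a replicate block, and each library left out. Promoter windows came from RefSeq (GRCm38.p6) and UTR positions from GENCODE. Some genes are not analysed here. The study's filter for expressed genes rests on intergenic reads, which were not used here, and it was not applied.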

Additional observations from a re-analysis of the deposited data

How the results depend on the processing

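Of 704 member values under 16 alternative fits, 651 kept their side of the threshold, 41 lost a call, 12 gained one and 0 reversed a called direction. The 651 include 32 values that changed sign in members called in neither fit. *Ccnd2*, *Ccnd3*, *Cdk6*, *Ccne1*, *Ccne2*, *Cdc6*, *Mcm4*, *E2f1* and *Mybl2* passed in all 17 fits. Under the study's limits, 3 members were higher and 0 lower, with 2 calls in G1, 1 in S phase and 0 in mitosis, 10 in the further lists and 2 inhibitors lower. Without the trend, 9 members were higher and 0 lower, with 2 calls in S phase, 0 in mitosis, 24 in the further lists and 3 inhibitors lower. Members lower numbered 2 with a pseudocount of 10, a mean of at least 50, the same 75th percentile and DESeq2, and 0 with the same total. At the same 75th percentile 5 S phase genes passed, and with a pseudocount of 0.1 there was 1 mitotic call. Leaving out each library, members higher ranged from 12 to 19, members lower from 0 to 4, S phase calls from 5 to 10, mitotic calls from 0 to 4 and calls in the further lists from 29 (without control 2) to 58. The cause of these shifts was not tested.

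Rescaling to the same total moved the median of all genes to 0.20 and to the same 75th percentile to -0.09; relative to it, the S phase median stayed between 0.42 and 0.70 in all fits. The mitotic median was 0.13 with the same total, -0.15 at the same 75th percentile, 0.02 with edgeR and DESeq2, 0.18 without mutant 3 and -0.26 without mutant 2. Same-numbered libraries did not deviate together (correlations -0.06, -0.06 and 0.01). With so few libraries this cannot exclude a pairing by number, and none is stated in the study's methods. With a replicate block, 15 members were higher, 1 lower and 1 mitotic gene passed. Alternatives for the further lists and *Adar* were added after seeing the data, and *Adar* kept its rise in each fit. *Aurka*, *Cdc20* and *Mcm2* passed in 8, 11 and 10 of the 17 fits. On the recovered reads, edgeR called 8387 and DESeq2 9654 of all genes, against 9040 with limma.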
